A study of Mus musculus with 10 samples.

Results

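The apical ectodermal ridge is the thickened rim of ectoderm at the tip of the limb bud, and 10 genes of its signalling were followed here: the FGF ligand genes Fgf8, Fgf4, Fgf9 and Fgf17, the Wnt-amplifying ligand gene Rspo2, the Notch ligand gene Jag2, and the transcription factor genes Sp8, Sp6, Dlx5 and Dlx6. All probe sets annotated to exactly 1 of these symbols were taken, which gave 20 of the 45101 probe sets on the array, for 10 of 18194 genes annotated there. The RNA came from limb buds of mouse embryos of a cross in which 1 parent carried a floxed Dicer allele in the heterozygous state and the prxcre driver, and the other was homozygous for the floxed allele. Of 10 arrays, 5 were labelled wild type and 5 Dicer mutant, each group numbered 1 to 5. The embryos were sorted by genotype into heterozygous, wild type and mutant, and the sources used here leave unstated where the heterozygous limb buds went, how old the embryos were, whether fore- or hindlimbs were taken and how many embryos were pooled per array. The p-values therefore measure the spread between these samples, which may be technical.

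Ridge cells secrete FGFs that keep the underlying mesenchyme dividing and maintain Shh at the posterior margin, and the mesenchyme answers with FGF10 and with the BMP antagonist Gremlin, which keep the ridge in place. Wnt signalling through beta-catenin in the ectoderm turns on Fgf8 and needs the zinc finger factors SP8 and SP6. The prxcre driver is known for Cre activity in limb mesenchyme, so the ridge is a tissue in which Dicer is not its main target. Dlx5 and Dlx6 are active in the ridge and also in limb mesenchyme and cartilage. In whole limb buds, fewer ridge cells and less RNA per ridge cell cannot be told apart.

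The labelled tissue was checked by its markers. All 16 surface ectoderm markers, among them Krt5, Cdh1, Epcam and Trp63, and all 9 limb mesenchyme markers were bright enough to be tested, although no detection calls are at hand. The summed signal of the ectoderm markers lay between 6128 and 7393 in the wild type arrays and between 6106 and 6576 in the mutant arrays. Dicer1, the targeted gene, had signals of 425, 372, 390 and 706 at probe set 1427941_at in wild type 1, 3, 4 and 5, while the mutant arrays 1, 3, 4 and 5 had 226, 221, 215 and 205. Number 2 ran the other way, with 233 in its wild type and 360 in its mutant array, so at Dicer1 the library labelled wild type 2 and the library labelled Dicer mutant 2 both went against their labels. Each comparison is given with all 10 arrays as labelled and without the pair numbered 2, a choice made with the data in view; no p-value of the 8 arrays is corrected for it. Array medians lay between 146 and 153. The number of arrays and the spread between them limit the precision.

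No tested ridge probe set was called different between the groups, in fits that called few or none of all probe sets. Of the 20 probe sets, 11 from 8 genes passed the filter on low values (a geometric mean signal of at least 151, the median of the array). Fgf17 and Dlx6 had no probe set that passed, and for all 9 probe sets below the filter, values come from a fit without the filter. Limma called 0 of the 11 at a Benjamini-Hochberg adjusted p below 0.05 in the 10 arrays, where it called 0% of 22519 probe sets, and 0 of 11 in the 8 arrays, where it called 378 (1.68%). A fit of these 8 arrays that blocks on replicate number called 0 of 11 against 1219 (5.41%) of all. Without the block, none of the 20 had an unadjusted p below 0.05 in either comparison; with it, 1 of the 11 did, Fgf9 at 1438718_at.

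The differences were small in size. In the 10 arrays the 11 tested probe sets had a median log2 fold change (mutant minus wild type) of -0.061, beside -0.021 over all probe sets tested, with 3 above 0 and 8 below it. In the 8 arrays the median was -0.060 beside -0.0064, with 4 above and 7 below. The 95% confidence intervals of all 20 probe sets included no change and lay inside a 2-fold change in both directions in both comparisons. They lay inside a 1.5-fold change for 18 of 20 in the 10 arrays and 16 of 20 in the 8 arrays. For the 9 probe sets below the filter, whose distance from background is unknown, a narrow interval need not bound the difference in RNA. For 0 of the 11 tested probe sets did the 5 wild type arrays lie apart from the 5 mutant arrays, where 0.4% of all tested did. In the 4 against 4 arrays it was 0 of 11, where 9.09% did. Over all 20 the count was 0 in both comparisons as well.

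**Figure D1:**
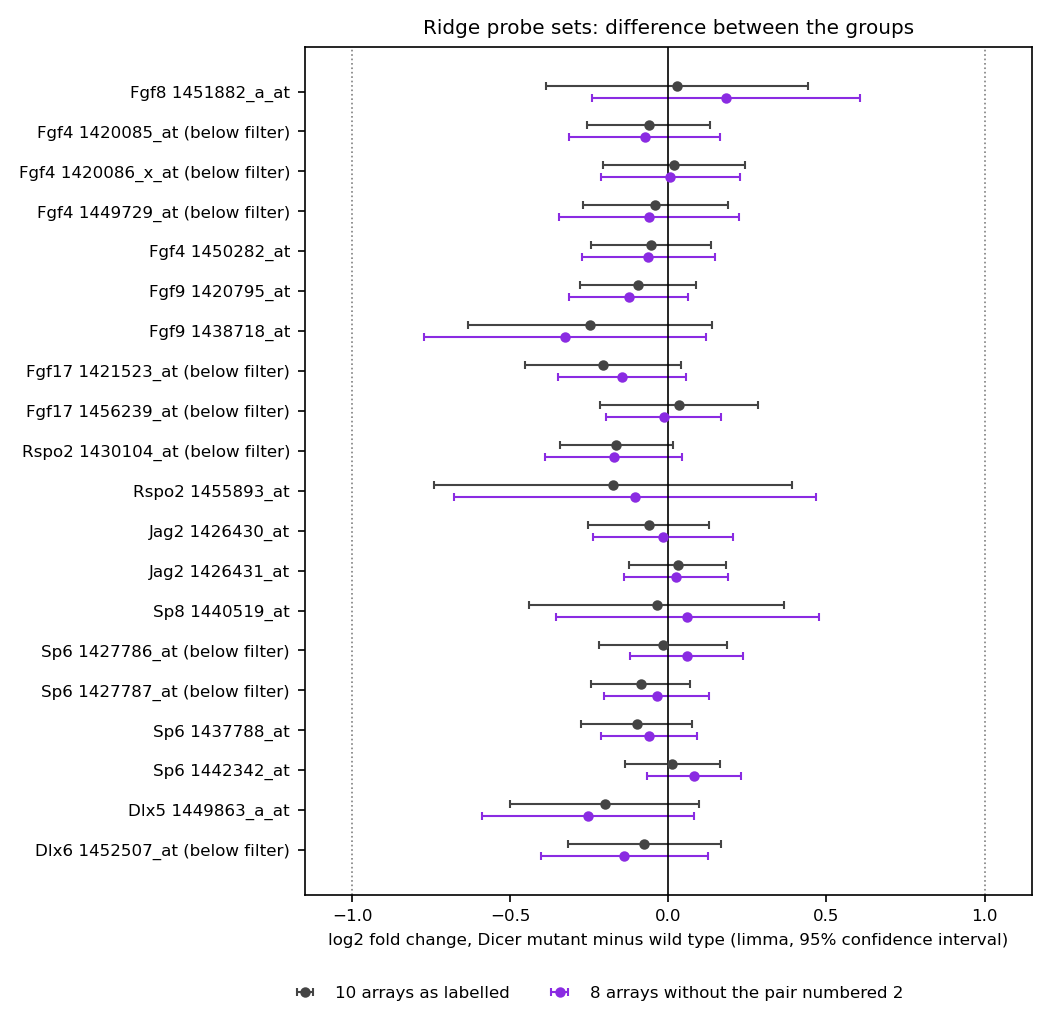
Log2 fold change (x axis, mutant minus wild type) of each ridge probe set (y axis) with its 95% confidence interval from limma, in grey for the 10 arrays as labelled and in violet for the 8 arrays without the pair numbered 2; dotted lines mark a 2-fold change. All 20 intervals cross 0 and stay within the dotted lines.

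Fgf8 encodes the main FGF of the ridge, expressed along its whole length. At its single probe set, 1451882_a_at, wild type 1 to 5 had signals of 169, 186, 132, 157 and 254, and Dicer mutant 1 to 5 had 189, 123, 240, 168 and 195. The groups overlapped over most of their range, with the highest array a wild type (number 5) and the lowest a mutant (number 2). The mean was 180 ± 46.0 (SD, n = 5) in the wild type and 183 ± 42.7 (SD, n = 5) in the mutant arrays. On the log2 scale the fold change was 0.03 (SE 0.19, 95% interval -0.39 to 0.44, limma adjusted p = 1.00). Without the pair numbered 2 it was 0.18 (SE 0.19, interval -0.24 to 0.61, adjusted p = 0.820), and a rise of more than 1.52-fold lay outside this interval. Leaving out wild type 5 as well moved it to 0.37 (limma adjusted p = 0.198). By number the mutant array was higher in pairs 1, 3 and 4 and lower in pairs 2 and 5. Pairs 1 and 3 alone gave 0.51 (adjusted p = 0.120) and pairs 4 and 5 alone gave -0.14 (adjusted p = 0.884).

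Fgf4 is switched on in the posterior ridge after Fgf8 and depends on SHH signalling through Gremlin. Of its 4 probe sets, 1450282_at passed the filter, with signals of 198, 205, 210, 177 and 164 in wild type 1 to 5 and 192, 202, 189, 170 and 164 in Dicer mutant 1 to 5. The groups overlapped, and the order of the arrays followed their numbers: 1 to 3 lay between 189 and 210, and 4 and 5 between 164 and 177, whatever the genotype. The log2 fold change was -0.05 (SE 0.09, interval -0.24 to 0.13) in the 10 arrays and -0.06 (SE 0.09, interval -0.27 to 0.15, limma adjusted p = 0.895) in the 8. The other 3 Fgf4 probe sets lay below the filter, at 61.6 to 88.9 (1420085_at), 94.0 to 141 (1420086_x_at) and 28.2 to 43.6 (1449729_at). At 1420086_x_at numbers 4 and 5 were the higher ones, at 113 to 141 against 94.0 to 112 in numbers 1 to 3, opposite to 1450282_at. The probe sets of Fgf4 thus did not follow the same order over the arrays, and no detection call says which of them measured Fgf4 RNA.

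Fgf9 is expressed in the ridge and signals to the mesenchyme. At 1438718_at wild type 1 to 5 had 233, 214, 242, 294 and 433 and Dicer mutant 1 to 5 had 188, 225, 222, 264 and 265. Wild type 5 stood far above every other array, and the other arrays of the groups overlapped. It differed by a log2 fold change of -0.25 (SE 0.18, interval -0.63 to 0.14) in the 10 arrays and -0.33 (SE 0.20, interval -0.77 to 0.12, limma adjusted p = 0.595) in the 8, the lowest value of the 20 probe sets in both. Without wild type 5 it was -0.14 in the 8 arrays. The mutant array was the lower one in 4 of 4 numbers there, and blocking on replicate number gave an SE of 0.10, an unadjusted p of 0.0153 and a limma adjusted p of 0.124. The second Fgf9 probe set, 1420795_at, had 212, 201, 226, 246 and 272 in the wild type and 212, 203, 218, 222 and 221 in the mutant arrays, and a log2 fold change of -0.10 (SE 0.08) in the 10 arrays and -0.12 (SE 0.08, adjusted p = 0.648) in the 8. Wild type 5 was the highest array here too.

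Fgf17, the closest relative of Fgf8, is expressed in the posterior ridge. Both of its probe sets lay below the filter. At 1421523_at wild type 1 to 5 had 131, 123, 146, 161 and 126 and Dicer mutant 1 to 5 had 122, 90.6, 129, 139 and 119. The mutant array was the lower one in 5 of 5 numbers, yet the groups overlapped. The log2 fold change was -0.21 (SE 0.11, interval -0.45 to 0.04, unadjusted p = 0.0937, limma without the filter) in the 10 arrays and -0.15 (SE 0.09, adjusted p = 0.745) in the 8. The dim probe set 1456239_at, at 27.6 to 42.7, gave 0.03 (SE 0.12) in the 10 arrays.

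Rspo2 encodes R-spondin 2, a secreted protein that strengthens Wnt signalling and is needed to maintain the ridge. It varied most among the ridge probe sets. At 1455893_at wild type 1 to 5 had 157, 132, 117, 200 and 312 and Dicer mutant 1 to 5 had 169, 96.1, 147, 177 and 194, a 3.25-fold range from Dicer mutant 2 to wild type 5. Numbers 4 and 5 lay above numbers 1 to 3 in both groups, at 177 to 312 against 96.1 to 169. Its log2 fold change was -0.18 (SE 0.26, interval -0.74 to 0.39) in the 10 arrays, the widest interval of the set, and -0.10 (SE 0.25, limma adjusted p = 0.949) in the 8, where it turned to 0.15 without wild type 5. The second probe set, 1430104_at, lay below the filter at 65.8 to 91.0 and had -0.16 (SE 0.08, interval -0.34 to 0.02, unadjusted p = 0.0704, limma without the filter), the smallest p of the 20 in the 10 arrays.

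Jag2, the ridge ligand for Notch receptors, restrains ridge size. Its 2 probe sets both passed the filter and differed in sign. At 1426430_at the wild type arrays had 257, 298, 283, 240 and 291 and the mutant arrays 295, 253, 278, 258 and 229, with a log2 fold change of -0.06 (SE 0.09) in the 10 arrays. At 1426431_at they had 274, 246, 253, 264 and 292 against 269, 254, 259, 286 and 289, with 0.03 (SE 0.07, interval -0.12 to 0.18). This was the steadiest ridge probe set, with a 1.19-fold range over all 10 arrays. In the 8 arrays the values were -0.02 (SE 0.10, limma adjusted p = 0.984) and 0.02 (SE 0.07, adjusted p = 0.960).

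Sp8 encodes a zinc finger factor needed for Fgf8 expression and ridge formation. At 1440519_at wild type 1 to 5 had 191, 192, 169, 206 and 310 and Dicer mutant 1 to 5 had 197, 143, 192, 258 and 249. The groups overlapped, wild type 5 was again highest and Dicer mutant 2 lowest, and numbers 4 and 5 (206 to 310) lay above numbers 1 to 3 (143 to 197). For Sp8 the log2 fold change was -0.04 (SE 0.18, interval -0.44 to 0.36) in the 10 arrays and 0.06 (SE 0.18, interval -0.36 to 0.48, limma adjusted p = 0.963) in the 8, where it was 0.24 without wild type 5. Sp6, whose protein acts with SP8 in the ectoderm, has 4 probe sets, and 2 passed the filter. The brighter, 1437788_at, had 268, 255, 260, 283 and 287 in the wild type and 265, 213, 252, 258 and 278 in the mutant arrays. The mutant array was the lower one in 5 of 5 numbers, with a log2 fold change of -0.10 (SE 0.08) in the 10 arrays and -0.06 (SE 0.07, adjusted p = 0.841) in the 8. The other tested probe set, 1442342_at, lay between 141 and 171 on all arrays and had 0.01 (SE 0.07) and 0.08 (SE 0.07, adjusted p = 0.733). Probe sets 1427786_at (110 to 152) and 1427787_at (96.3 to 123) were below the filter. Just above it lay 1442342_at, with a mean signal of 155, and just below it 1427786_at, with 137.

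Dlx5 and Dlx6 encode a pair of homeobox factors that share regulatory elements and act in the ridge as well as in the skeleton. Dlx5 at 1449863_a_at had 328, 343, 357, 247 and 369 in wild type 1 to 5 and 279, 345, 327, 253 and 229 in Dicer mutant 1 to 5. The groups overlapped, with the 3 lowest mutant arrays and wild type 4 below all others. The log2 fold change was -0.20 (SE 0.14, interval -0.50 to 0.10) in the 10 arrays and -0.25 (SE 0.15, interval -0.59 to 0.08, limma adjusted p = 0.577) in the 8. Without wild type 4 it was -0.38 in the 8 arrays (unadjusted p = 0.0150, limma adjusted p = 0.264). Of 5 tested cartilage and bone genes, 2 had a log2 fold change above 0 in the 8 arrays. Col11a1 was at -0.27 in the 10 arrays and not called. It alone of the 5 was called in the 8 arrays (-0.58, limma adjusted p = 0.0314), beside 1.68% of all probe sets. That call was lost when any 1 of 7 of these arrays was left out, all but wild type 5; its part in the Dlx5 value was not tested. Dlx6 at 1452507_at was dim, at 39.3 to 59.0, with -0.08 (SE 0.11) in the 10 arrays and -0.14 (SE 0.12) in the 8, both from the fit without the filter.

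**Figure D2:**
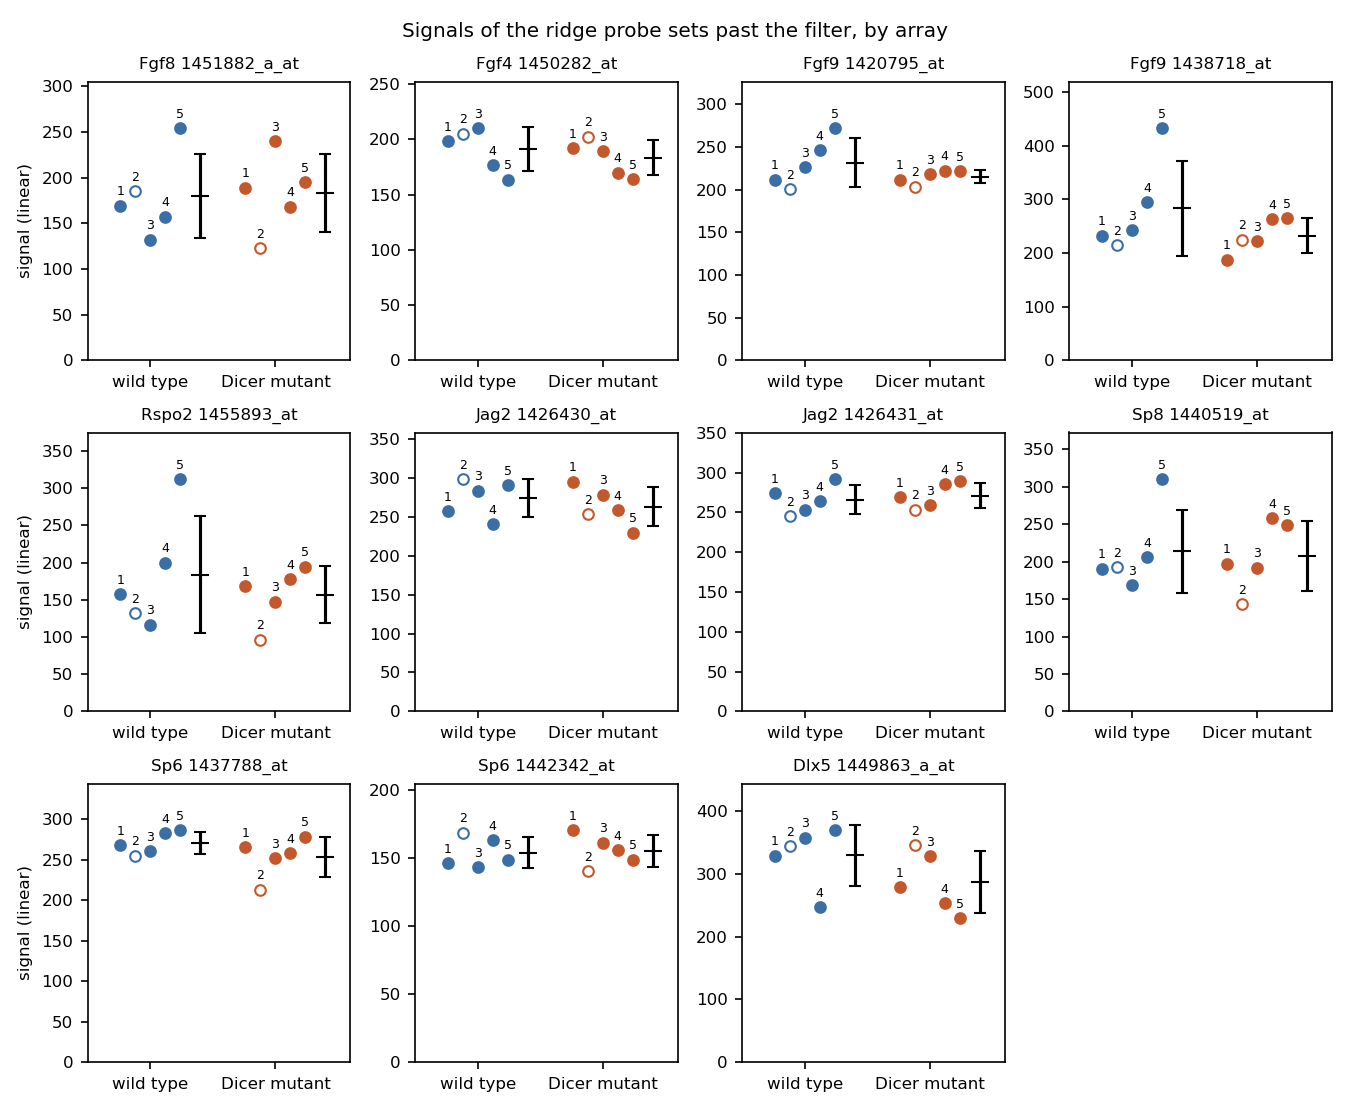
Linear signal (y axis, from 0) of the 11 ridge probe sets that passed the filter in the wild type (blue) and Dicer mutant (orange) arrays; digits are array numbers, open circles the pair numbered 2, and black bars the mean ± SD of all 5 arrays. The groups overlap in every panel, and wild type 5 is the highest array in 8 of the 11, among them Fgf8, both Fgf9 probe sets, Rspo2 and Sp8.

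Single arrays moved several ridge genes together. Wild type 5 was the highest of the 10 arrays for 8 of the 11 tested ridge probe sets, where it was highest for 17.9% and lowest for 18.1% of all tested probe sets. Dicer mutant 2 was the lowest for 5 of 11, where it was lowest for 20.7% of all. The SD of the log2 signal over the 10 arrays was 0.47 for Rspo2, 0.33 for Fgf8, 0.33 for Fgf9 at 1438718_at and 0.32 for Sp8, beside a median of 0.15 and a 90th percentile of 0.30 over all probe sets tested. The remaining 7 ridge probe sets had SDs from 0.087 (Jag2) to 0.25 (Dlx5). The ectoderm marker sum was 6955 in wild type 5 and 6106 in Dicer mutant 2, the lowest of all 10. The sum was highest in wild type 2 (7393), where Fgf8 stood at 186. As a sum of linear signals it weighs bright markers most, such as Krt5, which was highest in wild type 2 (985). Whether the share of ectoderm sets the ridge signals was not tested.

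Fgf8 varied over the arrays together with some genes of the limb signalling loop. Pearson's r and Spearman's rho of log2 signals with Fgf8 were computed for 44 probe sets: the 10 other tested ridge probe sets, 18 genes of the FGF loop and FGF response in mesenchyme, and 16 ectoderm markers. All p-values are from 100000 permutations of the arrays, adjusted over the 44. The arrays were permuted freely and not within numbers, so these p-values take no account of arrays of 1 number that deviate together. The 18 loop and response genes had r from 0.20 to 0.93, with a median of 0.55, beside a median of 0.56 for the 16 ectoderm markers. Of these 18 genes, 7 passed by both measures: Grem1, Dusp6, Spry4, Spred1, Shh, Il17rd and Cyp26b1. Grem1, which encodes Gremlin, had r = 0.93 (n = 10, permutation p = 3e-05, adjusted p = 0.00132) and rho = 0.96 (permutation adjusted p = 0.00396). Dusp6, a phosphatase gene induced by FGF, had r = 0.92 (permutation adjusted p = 0.00176) and Spry4, an FGF feedback inhibitor gene, r = 0.91 (permutation adjusted p = 0.00293). Shh had r = 0.89 (permutation adjusted p = 0.00431). Without the arrays farthest from the Fgf8 median, Dicer mutant 2 and wild type 5, the r of these 7 genes lay between 0.70 and 0.93. Within the 6 arrays numbered 1 to 3 it lay between 0.90 and 0.95, and numbers 4 and 5 hold 4 arrays, under the 6 taken as the least for a correlation. An r above 0.8 was reached by 6 of these 18 genes, and by 209 (1.80%) of the 11600 other genes. Each r describes these arrays and names no cause.

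Other ridge genes followed Fgf8 less closely by value, and 0 of 10 probe sets passed. Rspo2 had r = 0.71 (permutation p = 0.0215, adjusted p = 0.0677) and Sp8 r = 0.70 (permutation p = 0.0235, adjusted p = 0.0690). Without Dicer mutant 2 and wild type 5, the arrays farthest from the Fgf8 median, r was 0.22 and 0.23. Without wild type 5 alone it was 0.54 and 0.54, without the pair numbered 2 it was 0.62 and 0.57, and within the 6 arrays numbered 1 to 3 it was 0.77 and 0.83. Fgf4 at 1450282_at had r = -0.54 (permutation adjusted p = 0.219) and Dlx5 0.006. Of the 16 ectoderm markers, 12 had an r above 0, and the median of the 16 was 0.56. Rab25 (r = 0.91, permutation adjusted p = 0.00447) and Tfap2a (0.87, permutation adjusted p = 0.00710) passed by both measures. Krt5 and Krt14, the basal keratins, were among the markers below 0, with -0.27 and -0.53. Whether these r values differ from each other was not tested.

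**Figure D3:**
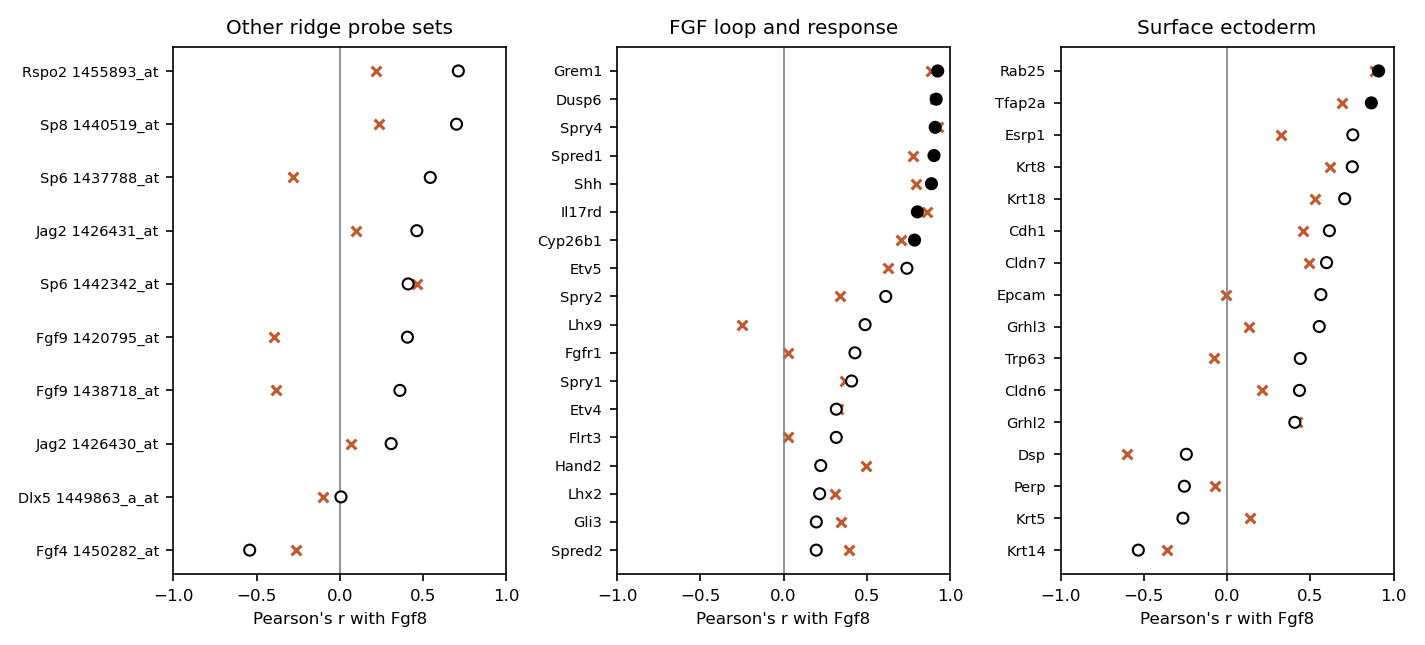
Pearson's r with Fgf8 over 10 arrays (x axis) for the other tested ridge probe sets, the FGF loop and response genes and the surface ectoderm markers (y axis); filled circles passed the permutation test by Pearson's r and Spearman's rho after adjustment over 44, open circles did not, and orange crosses give r without Dicer mutant 2 and wild type 5. The 7 filled loop genes keep an r of 0.70 to 0.93 without these arrays, and Rspo2 and Sp8 drop to 0.22 and 0.23. Within the 6 arrays numbered 1 to 3 (not drawn) the 7 genes had 0.90 to 0.95, and Rspo2 and Sp8 had 0.77 and 0.83.

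Over all 11600 other genes, the 3 whose log2 signals were most like Fgf8 were Ptch1 (r = 0.96), Sall1 (0.95) and Tiam1 (0.95), with rho of 0.95, 0.98 and 0.98. Ptch1 encodes the SHH receptor and is itself a target of SHH signalling, and Sall1 encodes a zinc finger factor of the distal limb. Being the highest of 11600 values, these r carry no p. Without Dicer mutant 2 and wild type 5 they were 0.91, 0.89 and 0.91.

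Among the mesenchymal genes that varied with Fgf8, the groups overlapped for Shh and Grem1 in the 10 and in the 8 arrays. For Il17rd they overlapped in the 10 arrays, with 1229 in wild type 2 and 762 in Dicer mutant 2. In the 8 arrays its groups lay apart, as for 9.09% of all tested probe sets, at 806 to 1117 in the wild type and 1160 to 1346 in the mutant. Shh had signals of 147, 134, 98.0, 142 and 412 in wild type 1 to 5 and 256, 83.7, 343, 237 and 393 in Dicer mutant 1 to 5. Its highest array was wild type 5 and its lowest Dicer mutant 2, as for Fgf8. The log2 fold change of Shh was 0.52 (SE 0.44) in the 10 arrays and 0.82 (SE 0.39, limma adjusted p = 0.436) in the 8. Over all 5 numbers the mutant array was the higher one in 3 (1, 3 and 4). Grem1 had 225, 236, 157, 175 and 445 in the wild type and 269, 152, 266, 197 and 270 in the mutant arrays. Its log2 fold change was -0.03 (SE 0.26) in the 10 arrays and 0.12 (SE 0.29, limma adjusted p = 0.949) in the 8.

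**Figure D4:**
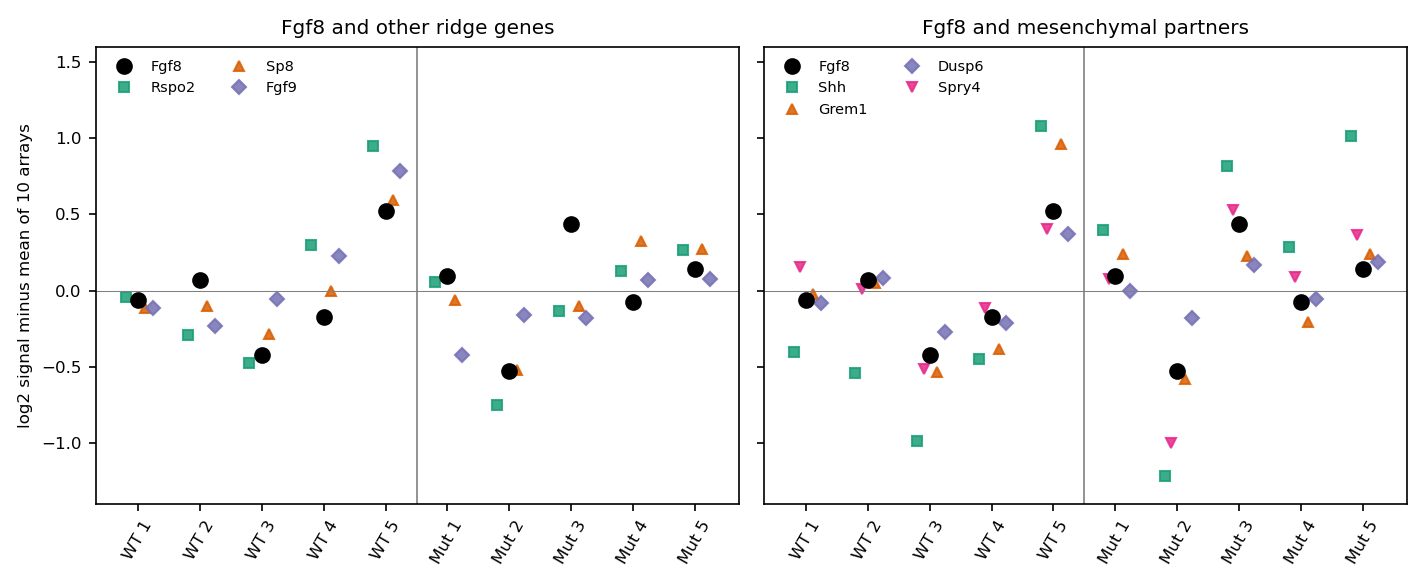
Log2 signal of each array minus the mean of the 10 arrays (y axis) for Fgf8 (black) with Rspo2, Sp8 and Fgf9 (1438718_at) on the left and with Shh, Grem1, Dusp6 and Spry4 on the right; arrays are on the x axis, wild type (WT) left of the line and Dicer mutant (Mut) right of it. Wild type 5 is high and Dicer mutant 2 low for Fgf8, Rspo2, Sp8, Shh, Grem1 and Spry4.

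Of the 118 genes tested over all other lists, 0 were called in the 10 arrays, 1 in the 8 arrays and 9 in the 8 arrays with the replicate block, beside 0%, 1.68% and 5.41% of all probe sets. Among 24 tested genes that induce or maintain the ridge in the ectoderm, such as Trp63 and Dlx3, 0 passed in the 8 arrays (median log2 fold change 0.004, beside -0.013 over all genes). The smallest p were those of the BMP ligand gene Bmp2 (-0.39, limma adjusted p = 0.148, with the replicate block 0.0348) and the Wnt receptor gene Fzd6 (0.22, adjusted p = 0.210). Wnt3, Wnt10a and En1 lay below the filter. Of 18 FGF loop and response genes 0 passed (median 0.085), led by the FGF antagonist gene Il17rd (0.47, adjusted p = 0.0931, with the block 0.0373); Fgf10 lay below the filter. Of 4 tested further FGF ligand genes 0 passed, with Fgf13 at -0.57 (limma adjusted p = 0.0604, with the block 0.0425) and Fgf18 at -0.24 (adjusted p = 0.419). Of 13 Notch pathway genes 0 passed (median -0.002), the smallest p being those of Dll3 (0.16, adjusted p = 0.323) and Rfng (-0.30, adjusted p = 0.368).

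Surface ectoderm markers had 0 of 16 called in the 8 arrays (median 0.003), with Krt14 at -0.39 (limma adjusted p = 0.595, with the block 0.0435) and Dsp at -0.20 (adjusted p = 0.647). Limb mesenchyme markers had 0 of 9, with Pdgfra at 0.20 (limma adjusted p = 0.271, with the block 0.0480) and Twist2 at -0.28 (adjusted p = 0.329). The limb type genes, which tell fore- from hindlimb, had 0 of 5, with Tbx4, the hindlimb T-box gene, at 0.58 (limma adjusted p = 0.157, with the block 0.00705) and Tbx5, its forelimb counterpart, at -0.21 (adjusted p = 0.649). White blood cell markers had 0 of 6, with Ctss at 0.43 (limma adjusted p = 0.0773, with the block 0.0197) and Tyrobp at 0.49 (adjusted p = 0.223, with the block 0.0164). Nothing was called, with or without the block, among muscle (8 tested, Myod1 -0.08 and Des 0.02), red cell (5 tested, Hbb-y 0.07 and Hba-x 0.08), endothelial (7 tested, Pecam1 -0.08 and Tek -0.09) and nerve markers (2 tested, Erbb3 -0.33 and Sox10 -0.01). Whether the mix of fore- and hindlimb differed between the groups, and its part in the ridge values, was not tested.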

How the data were processed

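Gene expression was measured in 10 limb bud samples, 1 Affymetrix array each, 5 labelled wild type and 5 Dicer mutant. The authors deposited linear intensity values for 45101 probe sets, and the submitters' processing notes name GCOS 1.3; the sources used here name no summarization model, scaling target or detection call. Trimmed means of the arrays (2% off each end) lay between 276 and 289, so no normalization was added.

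The log2 of each signal was used, with 1 as the floor. After leaving out 64 control probe sets, the 22519 with a mean log2 value at or above the median entered the limma 3.58.1 fit under R 4.3.3 (lmFit, then eBayes with trend), and a Benjamini-Hochberg adjusted p below 0.05 over all of them was a call. Platform annotation assigned 1 symbol to 34945 probe sets, several to 932 and none to 9160. Other lists used 1 probe set per gene, the brightest tested, taking suffix _x_at or _s_at only where no other existed. Data were simulated for 22519 probe sets with the spread of these arrays and noise drawn independently for each array. Log2 changes of 1 and 0.5, given to probe sets drawn at random, were called in 96% and 62% of cases for the 10 arrays. For the 8 arrays these shares were 93% and 55%. They do not hold for single ridge probe sets with a larger spread, such as Fgf8, whose SD was 0.33 beside a median of 0.15.

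The members, lists and the 8-array comparison were chosen with earlier results of these data known. All member probe sets are named. Of each other list the genes called in the 8 arrays (up to 4), or else the 2 with the smallest p, are named, and of all genes the 3 most like Fgf8 by Pearson's r; further genes were chosen after their values were seen. Without the pair numbered 2, deviations from the group means correlated between arrays of 1 number with r of 0.55, 0.55, 0.71 and 0.32 (numbers 1, 3, 4 and 5). The highest r with an array of the other group and another number was 0.54, 0.54, 0.52 and 0.52. Number 4 thus stood clearly above that value, numbers 1 and 3 lay close to it and number 5 below it. In the 10 arrays number 2 had -0.18. No label says what a number marks, so the replicate block is given beside results of the 8 arrays where it changes a call.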

Additional observations from a re-analysis of the deposited data

How the results depend on the processing

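Alternatives were quantile normalization, median centring, offsets of 16 and 64 before log2, array weights, a filter at the 70th percentile or none, eBayes without trend, the replicate block, gene-wise means of probe sets, each array left out in turn, and pairs 1 to 3 or 4 and 5 alone. Under all of these that could be fitted, limma called 0 ridge probe sets in the 10 and in the 8 arrays. Of 448 alternative values of single ridge probe sets, 442 lay within 1 SD of the arrays from the value given, 12 had an unadjusted p below 0.05, and the smallest adjusted p was 0.0612 (Dlx5 with array weights, 8 arrays). In the 10 arrays every alternative called 0 of all probe sets, and 632 had an unadjusted p below 0.05; array weights gave 5172 such probe sets and the other settings 325 to 2132. In the 10 arrays, same-numbered arrays correlated at 0.43, 0.27, 0.67 and 0.41 in their deviations for numbers 1, 3, 4 and 5 and at -0.18 for number 2, and the replicate block gave 0 calls.

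The 378 calls over all probe sets in the 8 arrays became 2612 with array weights, 1219 with the replicate block, 812 in pairs 1 and 3 and 0 in pairs 4 and 5, and 93 to 745 with 1 array left out. Genes called over the other lists numbered 1, but 2 with the filter at the 70th percentile, 11 with array weights, 9 with the replicate block, 9 in pairs 1 and 3, 0 in pairs 4 and 5, and 0 to 3 with 1 array left out. The cause of these shifts was not tested. Without detection calls, the distance of the ridge probe sets from background is unknown, the 9 dim ones among them.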
